A study of Mus musculus with 45 samples.

Results

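The 8 genes described here write, copy or oxidise methylated cytosine in DNA: the methyltransferases Dnmt1, Dnmt3a and Dnmt3b, the co-factors Uhrf1 and Dnmt3l, and the dioxygenases Tet1, Tet2 and Tet3. They were taken as the rows of the gene count table whose Ensembl identifiers carry these symbols, which gave 8 of 54532 rows. All 8 passed the low-count filter in every comparison, and the lowest count of any of them in a library was 578, for Tet3.

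The libraries came from neuroepithelial (neural tube) organoids grown from R1 mouse embryonic stem cells, an established line, in Matrigel and N2B27 medium. Organoids were collected at day 2, before treatment, and then at 7 hours, 8 and 18 h and every 12 h from there to 78 h, either left untreated or given 250 nM all-trans retinoic acid (RA). This makes 15 conditions of 3 libraries each, 45 in all, sequenced from poly(A) RNA. The labels give R1 and a wild-type genotype for every condition, and day 2 is the sampled state before the arms part. Hours and dose follow the sample titles, since a protocol text in the labels states the RA unit and the last 2 hours differently.

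In mammals, Dnmt3a and Dnmt3b place methyl groups on unmethylated CpG sites, helped in early embryonic cells by the inactive relative Dnmt3l. Dnmt1 copies the pattern onto the new strand at replication, where Uhrf1 recognises hemimethylated sites and brings it in. Tet enzymes oxidise methylated cytosine and so open a route to its removal. Epiblast-stage pluripotent cells are known for high Dnmt3b and Tet1, and neural tissue for Tet3.

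Library totals ran from 17298632 to 39688686 assigned reads (median 25923745). Levels are counts per 1000000 reads (CPM) scaled by the trimmed mean of M values over all 45 libraries. In organoids of mixed cells, fewer cells of a type and less RNA per cell cannot be told apart. The tissue label was checked on 8 neuroepithelial markers (Sox1, Sox2, Pax6, Nes, Hes5, Cdh2, Fabp7 and Vim), whose summed level was 583 CPM at day 2, 1331 CPM (range 1248 to 1421) in untreated and 1907 CPM (1804 to 2080) in RA-treated organoids at 78 h, with all 8 above 1 CPM at that time. Markers of other fates were also present: at 78 h the 7 simple-epithelium markers summed to 67.5 CPM in untreated and 704 CPM in RA-treated organoids, and the 8 primitive-endoderm markers to 71.4 and 154 CPM. The 6 mesoderm markers summed to at most 22.0 CPM in any library, with at least 3 of the 6 below 1 CPM in each condition. The 7 neuron markers summed to 228 CPM at day 2 and to 300.2 and 378 CPM at 78 h.

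In 6 libraries the mean of 4 Y-chromosome genes was 1.22 to 3.65 CPM, against 22.9 to 89.5 CPM in the other 39. These are RA 8 h replicate 3, all 3 untreated 30 h libraries, and RA 30 h replicates 1 and 3. Whether they derive from the same culture as the other 39 was not tested. They touch the results at 8 and 30 h, most of all for Dnmt3l. At 8 h values are also given without RA replicate 3, whereas all 3 untreated 30 h libraries are low, so no comparison with untreated organoids at 30 h could be made without them.

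**Figure D1:**
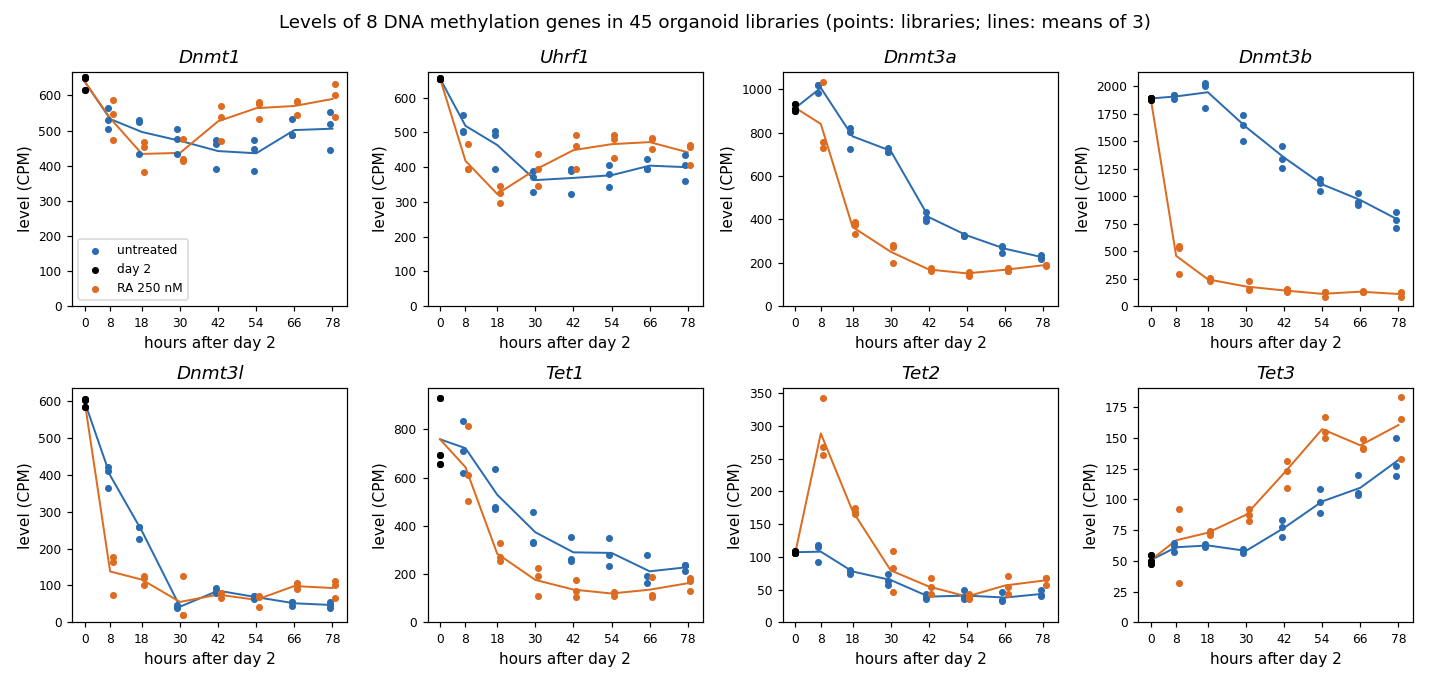
Level (CPM) of each gene against hours after day 2 in 45 libraries. Points are libraries (black day 2, blue untreated, orange RA-treated) and lines join means of 3. Dnmt3b in RA-treated organoids drops from 1890 CPM at day 2 to 457 CPM by 8 h, Tet2 peaks at 288 CPM at 8 h with RA, and Tet3 climbs in both arms.

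Levels per kilobase of merged exon allow only a rough comparison between genes, since the merged length covers the exons of all annotated isoforms. On this scale the order of levels at day 2 was Dnmt3b (370.1 ± 1.68 CPM per kb, SD, n = 3), Dnmt3l (200.3 ± 4.06), Uhrf1 (153.8 ± 0.263), Dnmt1 (86.7 ± 2.86), Dnmt3a (54.9 ± 1.06), Tet1 (49.1 ± 9.65), Tet2 (6.34 ± 0.0947) and Tet3 (3.03 ± 0.229). Dnmt3a and Tet1 lay within the spread of Tet1 of each other. In untreated organoids at 78 h Dnmt3b was still at the top, at 154 ± 13.9 CPM per kb, followed by Uhrf1 at 93.8 ± 8.79 and Dnmt1 at 68.5 ± 7.37. With RA at 78 h the order was Uhrf1 (103.9 ± 7.54), Dnmt1 (80.0 ± 6.43), Dnmt3l (31.2 ± 7.73) and Dnmt3b (21.5 ± 4.01), then Dnmt3a, Tet1, Tet3 and Tet2 between 11.3 and 3.77 CPM per kb. Among the last of these, Dnmt3a, Tet1 and Tet3 (11.3, 10.5 and 9.61) lay within about their spread of each other.

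The pool of Dnmt transcripts therefore had a different make-up in the arms. Dnmt3b took 52.0 ± 0.607% of Dnmt CPM per kb at day 2 and 61.1 ± 1.41% in untreated organoids at 78 h, but 14.9 ± 2.22% with RA. Dnmt1 went from 12.2 ± 0.300% at day 2 to 27.2 ± 1.88% untreated and 55.7 ± 6.56% with RA. In the Tet pool, Tet1 took 83.7 ± 2.06% at day 2, 58.5 ± 3.34% untreated and 43.8 ± 6.26% with RA at 78 h, while Tet3 took 5.24 ± 0.479%, 31.3 ± 4.07% and 40.4 ± 7.35%. Tet2 reached its largest share, 30.8 ± 1.86%, in RA-treated organoids at 18 h.

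**Figure D2:**
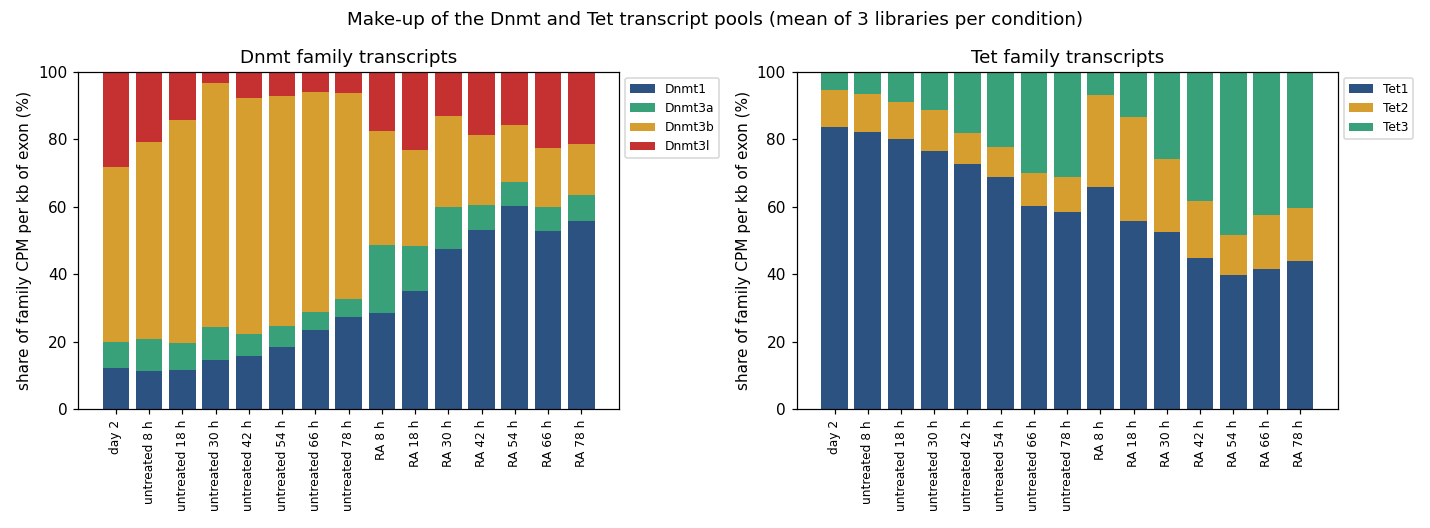
Share of the Dnmt family (left) and of the Tet family (right) taken by each gene, in percent of the family's CPM per kb of exon, as the mean of 3 libraries for each of 15 conditions. Dnmt3b holds 52.0% at day 2 and 14.9% at RA 78 h, where Dnmt1 holds 55.7%. The Tet1 share falls from 83.7% at day 2 to 58.5% (untreated) and 43.8% (RA) at 78 h. The Tet3 share rises from 5.24% to 31.3% and 40.4%.

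RA-treated and untreated organoids were compared at each hour to ask which members RA moved and when. Calls are at an adjusted p below 0.01 over all genes tested (edgeR quasi-likelihood test, Benjamini-Hochberg). At 8 h, 2 of 8 members were called (Dnmt3b down, Tet2 up) where 3.14% of all tested genes were. At 18 h, 7 members were called, 5 down and 2 up, against 42.6% of all genes (20.3% down and 22.3% up). Scaling by library totals moved the all-gene median at 18 h by 0.12 on the log2 scale, and the upward share of all calls from 52.3% to 69.4%. The count was 3 at 30 h (14.1% of all genes), 4 at 42 h (37.5%), 6 at 54 h (38.7%), 6 at 66 h (33.3%) and 5 at 78 h (33.4%, with 14.2% down and 19.2% up). The median log2 fold change of the 8 members was −0.70 at 18 h and 0.20 at 78 h, beside 0.02 and 0.00 for all genes. With the additional requirement of a log2 fold change above 1 in size, 4 members were called at 18 h, where 10.9% of genes were.

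Single libraries decided part of these counts. Without RA 8 h replicate 3 the count at 8 h was 5, and without RA 30 h replicate 2 the count at 30 h was 6. The all-gene shares above are from fits with every library, and those of fits without a library are not given. Of the 33 calls across the 7 hours, 10 fell above the threshold when some single library was left out, and a fit of all 45 libraries with a shared spread left 2 calls at 66 h and 1 at 78 h. In that fit the 18 h calls of Dnmt3l and Tet3 were lost as well (adjusted p = 0.014 and 0.31).

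**Figure D3:**
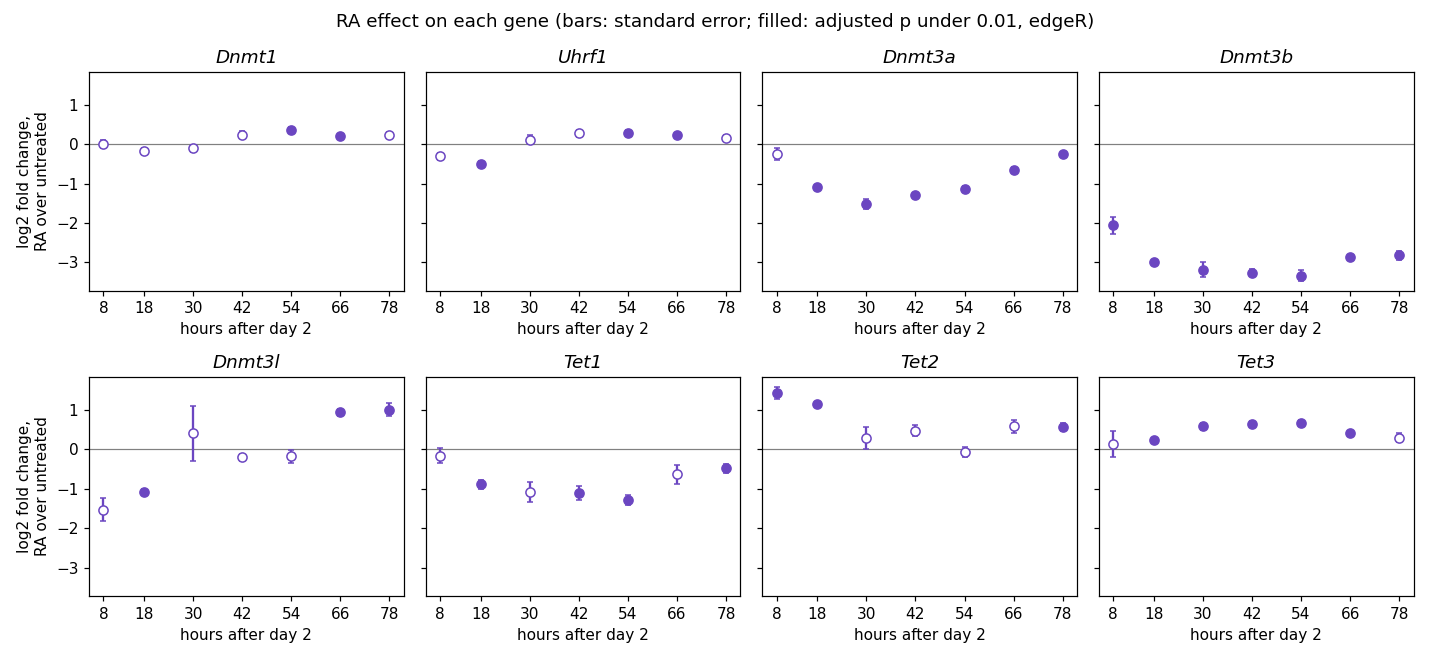
Log2 fold change of RA-treated over untreated organoids for each gene at 7 hours, with standard errors. Filled points have an adjusted p below 0.01 (edgeR). Dnmt3b lies between −3.34 and −2.06 at all 7 hours, Dnmt3a returns towards 0 by 78 h, and Dnmt3l lies below 0 at 18 h and above 0 at 66 and 78 h.

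The maintenance pair changed least. Dnmt1 (ENSMUSG00000004099, chr9:20907209-20959888, minus strand, GRCm38) and Uhrf1 (ENSMUSG00000001228, chr17:56303321-56323486, plus strand) both had their highest mean at day 2 and their lowest in RA-treated organoids at 18 h, and their highest and lowest condition means differed 1.48-fold and 2.03-fold. Over the 15 condition means the log2 levels of the pair had a Pearson r of 0.847, given as a description of means that share libraries. Because the pair moved together, part of the sequence upstream of each start is shown. The letters TTTCGCGC, a form of the motif bound by E2F factors, occur on either strand in 0.256% of 32851 RefSeq windows of 250 bases (GRCm38.p6) and in 1 of 3 Dnmt1 windows and 1 of 2 Uhrf1 windows. The letters CCAAT occur in 33.8% of all windows and in both of these. Capitals mark both motifs, positions count back from the base before the start, and each sequence reads along the gene's own strand.

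Dnmt1, 30 bases from −236 to −207, chr9:20952830-20952859, minus strand: CCAATTGGtttccgcgcGCGCGAAAaagcc
Uhrf1, chr17:56304063-56304312, plus strand: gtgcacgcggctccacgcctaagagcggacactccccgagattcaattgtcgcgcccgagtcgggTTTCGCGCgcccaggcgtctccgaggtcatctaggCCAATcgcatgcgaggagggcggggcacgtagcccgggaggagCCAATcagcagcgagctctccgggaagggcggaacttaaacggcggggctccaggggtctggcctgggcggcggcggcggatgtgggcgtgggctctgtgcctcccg

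In Dnmt1 the first motif sits at −219 to −212 on the opposite strand and 2 overlapping CCAAT matches at −236 to −229, and the rest of that window, which overlaps annotated exons of another Dnmt1 transcript, is not shown. In Uhrf1 the first motif sits at −185 to −178 and CCAAT at −150 to −146 and at −107 to −103. These motifs were picked after the windows had been looked at, and a match is a description of letters only.

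Dnmt1 was at 649, 654 and 615 CPM in the day 2 libraries. In untreated organoids its means at the 7 hours, in order, were 533, 496, 471, 442, 435, 501 and 505 CPM (SDs from 26.2 to 55.0, n = 3 each), and with RA they were 536, 434, 436, 526, 564, 570.1 and 590.1 CPM (SDs from 22.8 to 57.7). The lowest means lay at 18 and 30 h with RA and at 42 and 54 h untreated. No step between neighbouring hours passed the test for Dnmt1 in either arm. The nearest was untreated 8 h against day 2, at −0.24 ± 0.06 (adjusted p = 0.01), where the libraries did not overlap. The change of the RA effect on Dnmt1 from 18 to 42 h was 0.45 ± 0.13 (adjusted p = 0.021). At 54 h the untreated libraries had 384, 474 and 448 CPM and the RA libraries 533, 581 and 577 CPM, with no overlap, a log2 fold change of 0.36 ± 0.07 (SE, adjusted p = 0.0021). At 66 h the difference was 0.20 ± 0.05 (adjusted p = 0.0095), the libraries again did not overlap, and the call was lost without any of 4 single libraries: RA replicates 2 (adjusted p = 0.049) and 3 (0.04) and untreated replicates 1 (0.021) and 2 (0.028). The 54 h call was lost without RA replicate 2 (0.34, adjusted p = 0.013). Against day 2, Dnmt1 at 78 h was lower in untreated organoids by −0.34 ± 0.07 (adjusted p = 0.00022), and with RA the difference was −0.12 ± 0.06 (adjusted p = 0.11).

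Uhrf1 was at 654, 655 and 656 CPM at day 2. Its untreated means ran 519, 464, 363, 369, 377, 404 and 399.7 CPM from 8 to 78 h (SDs from 15.9 to 59.9), and its RA means 418, 323, 393, 449, 466, 472 and 443 CPM (SDs from 16.4 to 50.2). The RA arm had its low point at 18 h, and the untreated arm was near its lowest from 30 to 54 h. At 18 h the untreated libraries had 505, 395 and 491 CPM and the RA libraries 295, 346 and 326 CPM, all 3 below every untreated one (log2 fold change −0.51 ± 0.08, adjusted p = 0.00015). Later the sign turned: Uhrf1 was higher with RA at 54 h (0.29 ± 0.07, adjusted p = 0.0064) and at 66 h (0.24 ± 0.05, adjusted p = 0.0024). At 66 h the untreated libraries had 395, 395 and 423 CPM and the RA libraries 453, 483 and 479.7 CPM. Both later calls depended on single libraries. The 54 h call was lost without RA replicate 2 (adjusted p = 0.038) or 3 (0.03) or untreated replicate 1 or 3 (0.024 each), and the 66 h call without RA replicate 2 (0.016) or 3 (0.013).

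Dnmt3b, the more abundant de novo methyltransferase here, was the member RA moved furthest (ENSMUSG00000027478, chr2:153649450-153687730, plus strand, GRCm38). Day 2 libraries had 1880, 1893 and 1897 CPM. At 8 h the untreated libraries had 1919, 1883 and 1924 CPM and the RA libraries 548, 529 and 293 CPM, a 4.18-fold difference of means (log2 fold change −2.06 ± 0.22, adjusted p = 0.0017). No RA library came near an untreated one. At 18 h the gap was 8.01-fold, with untreated libraries at 2003, 1803 and 2035 CPM and RA libraries at 226, 250 and 253 CPM (−2.99 ± 0.06, adjusted p = 1.3e-12).

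From there Dnmt3b declined in both arms. The untreated means at 30, 42, 54, 66 and 78 h were 1630, 1352, 1108, 966 and 784 CPM and the RA means 178, 142, 111, 131 and 110 CPM. The log2 fold change stayed between −3.34 (54 h) and −2.82 (78 h), with adjusted p from 6.8e-05 to 9.2e-10, and the libraries of the arms overlapped at no hour. The call held with each library left out in turn at 6 of the 7 hours; at 8 h leaving out an untreated library gave adjusted p of 0.016, 0.014 and 0.02 with the fold change at −2.07 to −2.05. RA 8 h replicate 3, 1 of the libraries low in Y-chromosome genes, was the lowest for Dnmt3b at that hour, and without it the difference was −1.83 (adjusted p = 3.1e-12). Dnmt3c, a close copy of Dnmt3b, reached at most 0.764 CPM in any library.

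The window upstream of the Dnmt3b start is shown with that of Tet2, since these were the 2 members called at 8 h, in opposite directions. Capitals mark CpG, the site these enzymes act on. The Dnmt3b window holds 21 and the Tet2 window 51, where all windows have a median of 6. Windows of the other members hold from 2 (Dnmt1) to 40 (Dnmt3a). Neither the Dnmt3b nor the Tet2 window holds AGGTCA, the repeat unit bound by RA receptors, on either strand. Of all windows 14.0% do. Among the other members, a window of each of Tet1, Dnmt3a and Uhrf1 holds 1 match. That of Uhrf1 is the window shown above, where the match is not in capitals. Methylation itself was not measured in these libraries.

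Dnmt3b, chr2:153649199-153649448, plus strand: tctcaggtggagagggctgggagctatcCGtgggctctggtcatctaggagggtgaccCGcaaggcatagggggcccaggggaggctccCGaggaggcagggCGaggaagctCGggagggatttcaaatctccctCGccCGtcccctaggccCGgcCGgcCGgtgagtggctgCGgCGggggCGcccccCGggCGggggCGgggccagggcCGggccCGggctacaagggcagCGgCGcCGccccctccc
Tet2, chr3:133544391-133544640, minus strand: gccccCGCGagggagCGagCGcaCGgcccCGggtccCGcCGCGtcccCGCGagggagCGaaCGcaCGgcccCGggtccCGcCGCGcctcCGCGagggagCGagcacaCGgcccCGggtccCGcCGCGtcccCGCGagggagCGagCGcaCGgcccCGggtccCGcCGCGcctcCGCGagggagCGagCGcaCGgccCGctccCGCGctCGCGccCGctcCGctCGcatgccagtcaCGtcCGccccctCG

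Dnmt3a (ENSMUSG00000020661, chr12:3806007-3914443, plus strand) fell later and more evenly. Untreated means were 1006, 782, 716, 409.8, 326, 264 and 224 CPM from 8 to 78 h (SDs from 1.90 to 49.9), after 914 ± 17.6 CPM at day 2. With RA they were 839.7, 364, 250.4, 168.6, 151, 167 and 188 CPM (SDs from 3.26 to 169.6). RA organoids held at 42 h a level that untreated organoids had not reached by 78 h. At 18 h the untreated libraries had 802, 726 and 819 CPM and the RA libraries 333, 386 and 374 CPM, without overlap (log2 fold change −1.09 ± 0.06, adjusted p = 1.5e-08). The difference was −1.52 ± 0.13 at 30 h (adjusted p = 0.00031), −1.29 ± 0.06 at 42 h, −1.13 ± 0.06 at 54 h and −0.65 ± 0.06 at 66 h (adjusted p = 1.6e-05). By 78 h it was −0.24 ± 0.05 (adjusted p = 0.0018), with untreated libraries at 216, 234 and 223 CPM and RA libraries at 187, 191 and 185 CPM. The 78 h call was lost without untreated replicate 2 (−0.23, adjusted p = 0.014).

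At 8 h Dnmt3a had no call (−0.25 ± 0.14, adjusted p = 0.29). The RA libraries there had 755, 729 and 1035 CPM against 981, 1019 and 1019 CPM in untreated organoids, so 1 RA library lay above and 2 below every untreated library. The high library is RA 8 h replicate 3, and without it the difference was −0.45 (adjusted p = 4.1e-05).

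Dnmt3l (ENSMUSG00000000730, chr10:78041947-78063622, plus strand) lost most of its level in both arms and was the member on which single libraries weighed most. Day 2 libraries had 604, 607 and 585 CPM. Untreated libraries at 8 h had 364, 412 and 422 CPM and at 18 h 258, 226 and 260 CPM. RA libraries had 178, 163 and 73.4 CPM at 8 h and 100.5, 127 and 121 CPM at 18 h, below every untreated library at both hours. The 18 h difference was −1.09 ± 0.08 (adjusted p = 1.6e-07, and 0.014 in the fit of all 45 libraries). The 8 h difference of −1.53 ± 0.29 had an adjusted p of 0.018, and without RA 8 h replicate 3 it was −1.24 with an adjusted p of 2e-09.

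At 30 h, 5 of the 6 libraries were low in Y-chromosome genes. For Dnmt3l the untreated libraries had 46.3, 39.5 and 41.5 CPM, between means of 248 CPM at 18 h and 85.9 CPM at 42 h. The RA libraries had 19.8 and 19.6 CPM in replicates 1 and 3, the lowest of all 45, and 127 CPM in replicate 2, which is not low in Y-chromosome genes. With all 6 libraries the difference was 0.40 ± 0.70 (adjusted p = 0.7), and without RA replicate 2, so that every library had low Y-chromosome genes, it was −1.13 (adjusted p = 2.5e-09). What sets these libraries apart was not tested.

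By 42 h the RA effect on Dnmt3l had changed by 0.90 ± 0.13 from 18 h (adjusted p = 7.9e-05, with 16.2% of all genes called). This call was lost in the fit of all 45 libraries. The late hours went the other way. At 66 h untreated libraries had 55.2, 54.0 and 45.6 CPM and RA libraries 91.4, 106 and 98.2 CPM, without overlap (0.94 ± 0.08, adjusted p = 1.1e-05). At 78 h untreated libraries had 54.6, 46.4 and 39.6 CPM and RA libraries 112, 100.2 and 67.3 CPM (1.01 ± 0.17, adjusted p = 0.00049). The change of the RA effect between 18 and 78 h was 2.07 ± 0.21 (adjusted p = 8.6e-07), where 27.9% of all genes had a called change. All 18 h libraries have title numbers below 10000 and all 78 h libraries above, so hour and number series cannot be told apart there. In the fit of all 45 libraries the 66 h and 78 h differences had adjusted p of 0.038 and 0.029. Of the 10 naive-pluripotency markers, 7 were higher and 1 lower with RA at 66 h, where 33.3% of all genes were called, although their summed level was 496 CPM with RA and 664 CPM without. At 78 h 4 were higher and 1 lower (33.4% of all genes called). The primitive-endoderm markers (7 of 8 higher with RA at 66 h) and simple-epithelium markers (6 of 7) were higher too, and their part in the Dnmt3l result was not tested. Aire overlaps Dnmt3l on the opposite strand over 67 bases of exon, with 21 to 1658 counts per library, and the strand setting of the counting is not given in the sources used here.

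**Figure D4:**
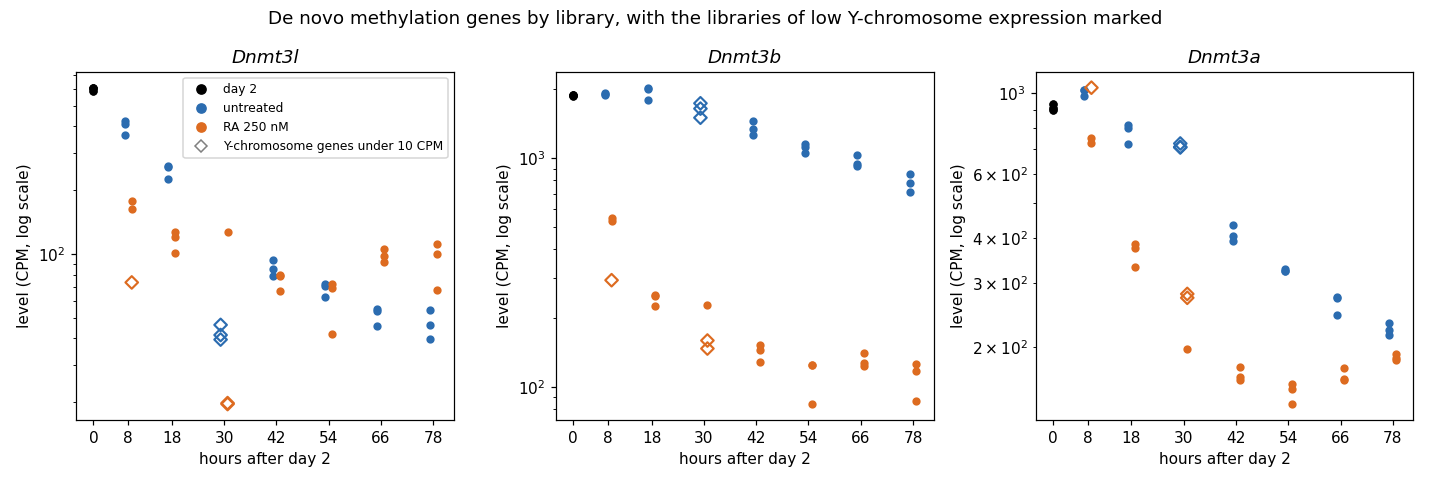
Levels (CPM, log scale) of Dnmt3l, Dnmt3b and Dnmt3a in each library against hours after day 2. Open diamonds mark the 6 libraries with Y-chromosome genes under 10 CPM. At 30 h they lie at 19.6 to 46.3 CPM for Dnmt3l, against 127 CPM in the unmarked RA library, and they hold, at RA 8 h, the lowest Dnmt3b (293 CPM) and highest Dnmt3a (1035 CPM) of their condition.

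Tet1 (ENSMUSG00000047146, chr10:62804570-62908996, minus strand), the main Tet enzyme of pluripotent cells, fell in both arms and faster with RA. Day 2 libraries spread from 654 to 930 CPM. Untreated means were 722, 529, 373, 290.0, 288, 211 and 229 CPM from 8 to 78 h (SDs from 15.5 to 107), and RA means 643, 284, 176, 136, 119, 135 and 162 CPM (SDs from 7.32 to 158). At 18 h the untreated libraries had 471, 637 and 478 CPM and the RA libraries 328, 255 and 269 CPM, all lower (−0.89 ± 0.12, adjusted p = 4.5e-05). The difference passed again at 42 h (−1.11 ± 0.18), at 54 h (−1.29 ± 0.12, adjusted p = 9.3e-06) and at 78 h (−0.48 ± 0.11, adjusted p = 0.0031). The 78 h call was lost without untreated replicate 1 (adjusted p = 0.014) or 2 (0.013). At 30 h it was −1.09 ± 0.25 (adjusted p = 0.017), and without RA replicate 2 −0.87 (adjusted p = 2.9e-06).

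At 66 h Tet1 followed the replicate numbers. The untreated libraries had 279, 193 and 162 CPM and the RA libraries 189, 114 and 103 CPM, each RA library below the untreated library of its number although the arms overlapped. The difference was −0.64 ± 0.24 (adjusted p = 0.048) and −0.65 with the replicate number as a block (adjusted p = 3e-08). Without RA replicate 1 it was −0.95 (adjusted p = 0.0013). Tet2 behaved likewise at that hour, at 0.58 ± 0.17 (adjusted p = 0.016), or 0.58 with the block (adjusted p = 9.1e-07).

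Tet2 (ENSMUSG00000040943, chr3:133463679-133545139, minus strand), which acts without a CpG-binding domain of its own, was the member that rose first. Day 2 libraries had 107, 106 and 109 CPM. At 8 h untreated libraries had 115, 117 and 91.5 CPM and RA libraries 255, 268 and 342 CPM, 2.67-fold higher in the mean and without overlap (1.43 ± 0.16, adjusted p = 0.0022). At 18 h the untreated libraries had 74.1, 78.3 and 80.4 CPM and the RA libraries 175, 169 and 166 CPM (1.14 ± 0.05, adjusted p = 1.9e-09). The rise did not last: RA means were 79.3, 54.6, 39.4, 56.2 and 63.6 CPM at 30, 42, 54, 66 and 78 h, and untreated means 64.6, 39.2, 40.8, 37.8 and 43.6 CPM. At 54 h the difference was −0.06 ± 0.12 (adjusted p = 0.67). At 78 h it was 0.56 ± 0.10 (adjusted p = 0.00074), with untreated libraries from 39.98 to 49.6 CPM and RA libraries from 56.4 to 67.5 CPM.

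The 8 h call for Tet2 was lost when untreated replicate 1 (adjusted p = 0.02), 2 (0.016) or 3 (0.016) was left out, with log2 fold changes of 1.31 to 1.49. RA 8 h replicate 3 held its highest value, 342 CPM, and without it the difference was 1.27 (adjusted p = 2e-08). At 30 h the RA libraries had 82.7, 46.5 and 109 CPM against 57.5 to 73.7 CPM, a difference of 0.29 ± 0.27 (adjusted p = 0.47), and 0.55 (adjusted p = 0.00018) without replicate 2. At 42 h it was 0.47 ± 0.14 (adjusted p = 0.014), and 0.62 (adjusted p = 0.0012) without RA replicate 1.

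Tet3 (ENSMUSG00000034832, chr6:83362373-83459084, minus strand), the Tet enzyme of neural tissue, was the one member that rose over time. Day 2 libraries had 47.0, 50.1 and 54.6 CPM. Untreated means were 61.0, 62.5, 58.1, 76.8, 98.3, 109 and 132 CPM from 8 to 78 h (SDs from 1.37 to 15.7), and RA means 66.7, 72.8, 87.4, 121, 157, 144 and 160.4 CPM (SDs from 1.93 to 31.1). The RA mean lay above the untreated mean at all 7 hours. At 42 h the untreated libraries had 69.4, 83.2 and 77.8 CPM and the RA libraries 131, 123 and 110 CPM, without overlap (0.65 ± 0.08, adjusted p = 5.8e-05). The difference was 0.23 ± 0.05 at 18 h (adjusted p = 0.0019), 0.59 ± 0.09 at 30 h (adjusted p = 0.0027), 0.66 ± 0.08 at 54 h and 0.41 ± 0.06 at 66 h (adjusted p = 0.0003). At 78 h it was 0.30 ± 0.11 (adjusted p = 0.041), and 0.42 (adjusted p = 0.00061) without RA replicate 1.

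The 66 h call of Tet3 was lost in the fit of all 45 libraries, and its adjusted p reached 0.047 under other settings. The early Tet3 calls depended on single libraries. At 18 h the call was lost without RA replicate 2 (adjusted p = 0.012) or untreated replicate 1 (0.015), and at 30 h without RA replicate 1 (0.017) or any untreated library (0.026, 0.028 and 0.028). At 8 h the RA libraries had 76.1, 92.0 and 31.9 CPM against 57.0 to 64.3 CPM (0.13 ± 0.32, adjusted p = 0.83). The low value is again RA 8 h replicate 3, without which the difference was 0.45 (adjusted p = 0.00074).

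Against day 2, most members ended lower in both arms. These comparisons share the 3 day 2 libraries. All 78 h libraries have numbers above 10000 in their titles, and of day 2 only replicate 3 does. Hour and number series are thus largely confounded in them. In untreated organoids at 78 h all 8 members were called, 7 down and Tet3 up, where 69.5% of all genes were called (33.3% down and 36.2% up). With RA 7 were called, 6 down and Tet3 up, where 69.9% of genes were (33.1% down and 36.8% up). Untreated log2 fold changes were −3.68 ± 0.09 for Dnmt3l, −2.03 ± 0.06 for Dnmt3a, −1.73 ± 0.11 for Tet1, −1.30 ± 0.08 for Tet2, −1.27 ± 0.07 for Dnmt3b, −0.71 ± 0.06 for Uhrf1 and 1.38 ± 0.08 for Tet3. With RA they were −4.10 ± 0.11 for Dnmt3b, −2.68 ± 0.14 for Dnmt3l, −2.28 ± 0.05 for Dnmt3a, −2.23 ± 0.14 for Tet1, −0.75 ± 0.07 for Tet2, −0.57 ± 0.06 for Uhrf1 and 1.66 ± 0.11 for Tet3. Each of these 14 had an adjusted p of at most 2.1e-06. Dnmt3b was thus at 41.5% of its day 2 mean in untreated organoids and at 5.82% with RA, and no single library changed a call of either comparison.

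Step by step, neighbouring hours share libraries and few members were called at any one step. In untreated organoids the counts were 2 at 8 h against day 2 (7.51% of all genes), 3 at 18 h against 8 h (11.3%), 4 at 30 h against 18 h (41.3%), 4 at 42 h against 30 h (16.3%), 1 at 54 h against 42 h (1.49%), 2 at 66 h against 54 h (3.20%) and 0 at 78 h against 66 h (1.20%). Dnmt3l fell by 0.56 and Uhrf1 by 0.31 on the log2 scale in the first step, and Dnmt3a, Dnmt3l and Tet2 fell in the next. The 30 h steps hold the untreated libraries low in Y-chromosome genes, and Dnmt3l went −2.53 ± 0.07 into 30 h and 1.03 ± 0.08 out of it. In the 2 untreated steps where same-numbered libraries deviated together, the replicate block raised the counts. Dnmt3b (−0.29, adjusted p = 0.00021), Dnmt3l (−0.34, adjusted p = 0.00024) and Tet3 (0.35, adjusted p = 2.6e-05) then passed at 54 h against 42 h, which made 4 with Dnmt3a. Likewise Dnmt3a (−0.24, adjusted p = 0.0009), Dnmt3b (−0.31, adjusted p = 5.8e-05), Tet2 (0.21, adjusted p = 0.0075) and Tet3 (0.26, adjusted p = 0.00044) passed at 78 h against 66 h. Without the block 3 members had an unadjusted p under 0.05 in that last step, and DESeq2 called 2 members. The all-gene shares above are those of the edgeR calls without the block, and none is given for these other rules.

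In RA-treated organoids calls were made in the first 2 steps. The first step called 4 members (9.96% of all genes): Dnmt3b −2.03 ± 0.21, Dnmt3l −2.10 ± 0.29, Uhrf1 −0.62 ± 0.08 and Tet2 1.46 ± 0.12. The step from 8 to 18 h called 3 (5.02%), namely Dnmt3a −1.22 ± 0.15, Tet1 −1.19 ± 0.20 and Tet2 −0.77 ± 0.13. Without RA 8 h replicate 3 these counts were 7 and 6, but without another single library they ran from 1 to 4 in the first step and were 0 in the second. With the replicate block, where the numbers do not pair these libraries, they were 2 and 0. The 5 later steps called 0 members by edgeR, where 4.06%, 0.136%, 4.75%, 2.34% and 0.347% of all genes were called. In these steps 6, 3, 4, 4 and 2 members had an unadjusted p under 0.05, and DESeq2 called 1, 1, 2, 1 and 0. The all-gene shares are those of the edgeR calls, and none is given for the unadjusted p or DESeq2. RA 30 h replicate 2 touches 2 of them, since without it the edgeR counts were 6 for 30 h against 18 h and 4 for 42 h against 30 h. All-gene shares for the fits without a library or with the block are not given.

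Other genes of the pathway were followed in fixed lists. Among 12 further maintenance genes, 9 fell and 0 rose with RA at 18 h (median log2 fold change −0.25), where 20.3% of all genes fell and 22.3% rose (median 0.02). Scaled by library totals, 5 fell and 0 rose. Hells, a remodeller needed for methylation of repeats, fell from 854 to 515 CPM (−0.72 ± 0.07, adjusted p = 3.6e-06), its partner Cdca7 changed by −0.65 ± 0.05, and Pcna, the replication clamp, by −0.48 ± 0.05. At 78 h 3 of 12 were called, 1 up (Ehmt2, 0.29 ± 0.06) and 2 down (among them Cdca7, −0.29 ± 0.05), a smaller share than the 33.4% of all genes. Against day 2 the list was lower in both arms, with 8 down and 1 up untreated and 9 down and 1 up with RA, where 33.3% and 33.1% of all genes were down. Zfp57, which guards imprinted methylation, went from 389 to 80.8 CPM untreated and 87.5 CPM with RA, Dppa3, an inhibitor of Uhrf1, from 41.0 to 8.71 and 12.1 CPM, and Hells from 1008 to 289.6 CPM with RA.

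The replication list was lower with RA at 18 h, the hour of the lowest Uhrf1 mean. Of its 19 genes 12 fell and 1 rose (median −0.26), where 20.3% of all genes fell, with Ccne1, a cyclin of S-phase entry, at −0.54 ± 0.05 and the helicase subunit Mcm7 at −0.47 ± 0.07. Scaled by library totals, 6 fell and 2 rose. At 30 h the median was −0.20 and the summed level 6104 CPM with RA and 7087 CPM untreated, while Uhrf1 differed by 0.12 ± 0.12 (adjusted p = 0.51). At 42 h 1 fell and 1 rose, and at 78 h 1 fell and 2 rose, Ccne1 (0.29 ± 0.05) and Ccne2 (0.38 ± 0.09). Against day 2, 13 of 19 were lower at 78 h in each arm, where 33.3% (untreated) and 33.1% (RA) of all genes were. There Ccne1 was at −1.28 ± 0.05 untreated and −1.01 ± 0.05 with RA, Cdt1, a licensing factor, at −0.81 ± 0.06 untreated, and Ccne2 at 0.79 ± 0.09 with RA. The part of replication in the Uhrf1 result was not tested.

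Of 13 tested genes that feed the methyl group to these enzymes, 7 fell and 2 rose at 18 h (median −0.30, 6 down and 3 up scaled by library totals), where 20.3% of all genes fell and 22.3% rose, with Shmt1 at −0.75 ± 0.06 and Mat2a, which makes S-adenosylmethionine, at −0.65 ± 0.05. At 78 h 4 were down and 0 up, led by Mat2b (−0.35 ± 0.05) and Ahcy (−0.26 ± 0.06). Of all genes 33.4% were called there, 14.2% down and 19.2% up. Against day 2, 6 fell and 1 rose untreated and 7 fell and 2 rose with RA. Neither share called was larger than the 69.5% and 69.9% of all genes, of which 33.3% and 33.1% were down. Shmt1 was at −1.15 ± 0.05 untreated and −1.11 ± 0.05 with RA, and Mthfd1 at −1.04 ± 0.06 and −1.29 ± 0.05.

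The repair genes that replace oxidised cytosines gave 2 up and 7 down of 15 at 18 h (median −0.10, 4 up and 5 down scaled by library totals). Of all genes 42.6% were called there, 22.3% up and 20.3% down. Parp1 was at −0.54 ± 0.07 and Apex1, an abasic-site nuclease, at −0.51 ± 0.05, and Tdg, the glycosylase that removes oxidised methylcytosine, at −0.25 ± 0.06. At 78 h the list had 3 up and 3 down, beside 33.4% of all genes called, and the stress-response genes Gadd45g (1.66 ± 0.10) and Gadd45b (1.39 ± 0.10) rose furthest. Gadd45g was at 69.0 CPM at day 2, 7.25 CPM untreated and 22.7 CPM with RA at 78 h, so its RA value was above untreated and below day 2. Gadd45b went from 4.21 CPM to 5.16 and 13.4 CPM, and Gadd45a from 88.2 to 24.7 CPM untreated.

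Of 8 readers of methylated DNA, 3 rose and 0 fell at 18 h (median 0.04), a smaller share than the 42.6% of all genes called (22.3% up). Zbtb4 was at 1.61 ± 0.16 (2.14 to 6.56 CPM) and Mbd2 at 0.61 ± 0.07. At 78 h 4 were up and 1 down (median 0.27), where 33.4% of all genes were called (19.2% up). Mbd2 was at 1.10 ± 0.07 and Zbtb38 at 0.44 ± 0.09. Against day 2, Zbtb4 rose by 2.59 ± 0.18 untreated and 2.77 ± 0.18 with RA.

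Among 15 tested genes that direct the enzymes to or from chromatin, 2 rose and 4 fell at 18 h and 4 rose and 2 fell at 78 h (medians 0.00 and 0.10), shares near the 42.6% and 33.4% of all genes called, and at 18 h 5 rose and 1 fell when scaled by library totals. Nsd2, whose histone mark recruits Dnmt3a, was higher with RA at 18 h (0.76 ± 0.05) and rose from 90.6 CPM at day 2 to 456 and 559 CPM at 78 h. Kdm2b, which binds unmethylated CpG islands, was lower with RA at 78 h (−0.70 ± 0.06) and Kdm1b higher (0.48 ± 0.08). Cxxc4, a CpG-binding partner of Tet2, went from 2.02 CPM at day 2 to 39.7 CPM untreated and 28.6 CPM with RA, and was lower with RA at 42 h (−0.93 ± 0.16) and 78 h (−0.46 ± 0.06). Its relative Cxxc5 was lower with RA at 18 h (−0.40 ± 0.06) and at 78 h differed by 0.10 ± 0.09 (adjusted p = 0.39). Prdm14, which represses Dnmt3b in naive cells, was low throughout, at 9.07 CPM at day 2 and 8.11 and 5.64 CPM at 18 h (−0.51 ± 0.13, adjusted p = 0.0048).

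Likeness of pattern was measured as Pearson r of log2 CPM over the 15 condition means, which share libraries, against 14314 genes. Dnmt3b was most like Otx2 (r = 0.989), an epiblast and forebrain transcription factor, then Foxo1 and Sfrp4. Otx2 had 249 CPM untreated and 14.4 CPM with RA at 18 h. It belongs to the primed-epiblast list, of which 7 of 9 genes fell with RA at 18 h, where 20.3% of all genes fell. Dnmt3a was most like Zfp281, Jarid2 and Mkrn1 (r = 0.990, 0.986 and 0.985), Tet1 like Runx1t1, Oard1 and Pdk4, and Tet3 like Zfhx4, Tmtc2 and Mir124-2hg, the host transcript of a neural microRNA. Dnmt3l was most like B4galnt3, Stk38 and Spic, Tet2 like Rmnd5b, Ppp1r12a and Inhbb, Dnmt1 like Zfp180, Txlna and Ehmt2 (r = 0.914, 0.910 and 0.908), and Uhrf1 like Taok2, Cdk9 and Fen1 (r = 0.935, 0.933 and 0.928). Among the members themselves, Dnmt3a and Tet1 were alike (r = 0.977) and Dnmt3a and Tet3 opposite (r = −0.944).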

How the data were processed

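RNA was measured in 45 libraries from 15 conditions, 3 each. Per the labels and the study's methods, the authors trimmed 75 bp single-end reads (Trim Galore 0.5.0), removed abundant sequences (Bowtie2 2.3.4.1), aligned to GRCm38 (Ensembl release 94) with STAR and deposited raw gene counts from featureCounts (Subread 1.6.2), with strand setting and multimapping reads not given in the sources used here.

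Libraries were grouped by their sample titles. Counts were tested with edgeR 4.0.16 in R 4.3.3 (quasi-likelihood, TMM scaling, filterByExpr with a minimum count of 10 and minimum total of 15, Benjamini-Hochberg adjustment over all genes tested, threshold 0.01), with a fit for each comparison of 2 conditions on its 6 libraries. Whether an RA effect changed between hours was tested as an interaction on 12 libraries. SEs are of the log2 fold change, taken from the test statistic. The tests were checked on simulated counts with large changes in a small part of the genes and a fixed spread. Small changes and libraries that stand apart were not covered by that check. Levels per kb use merged exons of GENCODE M21, and upstream windows come from RefSeq (GRCm38.p6), which held at least 1 for all 8 members. No 2 libraries of a condition agreed within sampling noise (chi-square per degree of freedom from 1.97 to 109.6 over 45 pairs). The titles call the 3 libraries of a condition biological replicates, and p-values measure the spread between them. The members and the gene lists were chosen with earlier results of these data known. Of each list, the 2 genes with the largest called change and a mean of at least 1 CPM were named at 18 and 78 h and for 78 h against day 2, beside 7 genes named for acting on or with members and the 3 genes most like each member over condition means. A gene that this rule named among the readers is not reported here.

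Replicate numbers come from the titles. Deviations of same-numbered libraries from their condition means had a correlation above 0.1 for every number in 3 of 23 comparisons of 2 conditions: RA against untreated at 66 h (0.213 to 0.521), untreated 54 h against 42 h (0.189 to 0.519) and untreated 78 h against 66 h (0.178 to 0.450). Blocked values are given there where a call changed. Alternatives were DESeq2 1.42.0, RLE and library-total scaling, no filter, a threshold of 0.05, the replicate block, and each library left out in turn. A fit of all 45 libraries was also made, with and without the library series (numbers below or above 10000). Numbers above 10000 belong to all 66 and 78 h libraries, day 2 replicate 3, RA 30 h replicates 2 and 3 and untreated 54 h replicate 3. From 54 to 66 h with RA, hour and series cannot be told apart. At 30 h the arms differ partly in series.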

Additional observations from a re-analysis of the deposited data

Results flagged for a closer look

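The effect of RA on a member was tested for a difference between hours with an interaction term (edgeR quasi-likelihood test, adjusted over all genes, 12 libraries). Between 18 and 42 h, where 16.2% of all genes had a called difference, the RA effect (log2 fold change over untreated, 42 h minus 18 h) rose for Dnmt3l by 0.90 ± 0.13 (SE, adjusted p = 7.9e-05), for Uhrf1 by 0.80 ± 0.14 (adjusted p = 0.00057) and for Tet3 by 0.44 ± 0.10 (adjusted p = 0.0041), and for Tet2 it changed by −0.65 ± 0.16 (adjusted p = 0.0057). The Tet2 call was lost without each of 9 single libraries (adjusted p from 0.011 to 0.02). The Tet3 call was lost without RA 18 h replicate 3 or RA 42 h replicate 1 or 2 (adjusted p from 0.013 to 0.015). In the fit of all 45 libraries 1 of these 4 calls was left, that of Uhrf1. The calls of Dnmt3l, Tet2 and Tet3 were lost there, and the adjusted p of Dnmt3l reached 0.26 among the recomputations.

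Between 18 and 78 h, where 27.9% of all genes had a called difference, the RA effect rose for Dnmt3l by 2.07 ± 0.21 (adjusted p = 8.6e-07), for Dnmt3a by 0.83 ± 0.08 (adjusted p = 6.4e-07) and for Uhrf1 by 0.65 ± 0.12 (adjusted p = 0.00043), and for Tet2 it changed by −0.60 ± 0.12 (adjusted p = 0.00071). The adjusted p of Tet2 reached 0.11 among the recomputations. All 18 h libraries are of the lower number series and all 78 h libraries of the higher, so hour and series cannot be told apart. Dnmt3a thus went from −1.09 at 18 h to −0.24 at 78 h with RA below untreated at both, while Dnmt3l went from −1.09 to 1.01. Conditions of 3 libraries are below the 4 needed for a formal outlier test, and single libraries that stand apart are named in the report from leaving each out in turn.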

How the results depend on the processing

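The count of members called in a comparison stayed within 1.5 times of its value in 140 of 200 recomputations other than leaving a library out, and RLE scaling moved none of the 25 counts further. Of 1600 recomputed log2 fold changes of members, 1392 kept direction and side of the threshold, 131 newly passed it, 65 no longer passed it and 12 turned direction. Counts of the 6 related lists stayed within 1.5 times in 849 of 1200. The cause of the changes was not tested. Counts that moved further follow, each with the reported count in brackets.

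With the replicate number as a block, which pairs libraries in 3 of the comparisons and elsewhere shares only a number, the counts were 1 (2) for RA against untreated at 8 h, 8 (5) for RA against untreated at 78 h, 1 (4) for untreated 30 h against untreated 18 h, 4 (1) for untreated 54 h against untreated 42 h, 4 (2) for untreated 66 h against untreated 54 h, 4 (0) for untreated 78 h against untreated 66 h, 2 (4) for RA 8 h against day 2, 0 (3) for RA 18 h against RA 8 h, 2 (0) for RA 54 h against RA 42 h, 1 (0) for RA 66 h against RA 54 h. With DESeq2 they were 4 (2) for untreated 8 h against day 2, 4 (1) for untreated 54 h against untreated 42 h, 2 (0) for untreated 78 h against untreated 66 h, 5 (3) for RA 18 h against RA 8 h, 1 (0) for RA 30 h against RA 18 h, 1 (0) for RA 42 h against RA 30 h, 2 (0) for RA 54 h against RA 42 h, 1 (0) for RA 66 h against RA 54 h. Without a filter on low counts they were 7 (4) for RA against untreated at 42 h, 4 (2) for untreated 8 h against day 2, 4 (1) for untreated 54 h against untreated 42 h, 3 (0) for untreated 78 h against untreated 66 h, 1 (0) for RA 30 h against RA 18 h, 4 (0) for RA 54 h against RA 42 h, 3 (0) for RA 66 h against RA 54 h, 2 (0) for RA 78 h against RA 66 h. At an adjusted p under 0.05 they were 7 (4) for RA against untreated at 42 h, 5 (2) for untreated 8 h against day 2, 4 (1) for untreated 54 h against untreated 42 h, 2 (0) for untreated 78 h against untreated 66 h, 5 (3) for RA 18 h against RA 8 h, 2 (0) for RA 30 h against RA 18 h, 2 (0) for RA 54 h against RA 42 h, 1 (0) for RA 66 h against RA 54 h. Scaled by library totals they were 7 (4) for RA against untreated at 42 h, 1 (2) for untreated 66 h against untreated 54 h. In a fit of all 45 libraries they were 2 (6) for RA against untreated at 66 h, 1 (5) for RA against untreated at 78 h, 0 (2) for untreated 8 h against day 2, 1 (3) for untreated 18 h against untreated 8 h, 2 (4) for untreated 30 h against untreated 18 h, 2 (4) for untreated 42 h against untreated 30 h, 0 (1) for untreated 54 h against untreated 42 h, 0 (2) for untreated 66 h against untreated 54 h, 5 (3) for RA 18 h against RA 8 h, 2 (0) for RA 30 h against RA 18 h, 1 (0) for RA 42 h against RA 30 h, 1 (4) for the RA effect at 42 h minus 18 h. With the library series added to that fit they were the same, except 3 for RA 30 h against RA 18 h.

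Differences near 0 that turned direction were Dnmt1 in RA against untreated at 8 h (−0.0029 under a fit of all 45 libraries), Dnmt1 in RA against untreated at 8 h (−0.0029 under that fit with library series), Dnmt1 in RA against untreated at 30 h (0.027 under library totals), Dnmt3l in RA against untreated at 30 h (−0.25 under the replicate block), Dnmt3l in RA against untreated at 30 h (−0.082 under that fit with library series), Dnmt3l in RA against untreated at 54 h (0.028 under that fit with library series), Tet2 in untreated 8 h against day 2 (−0.025 under that fit with library series), Dnmt1 in untreated 78 h against untreated 66 h (−0.0021 under RLE scaling), Dnmt1 in untreated 78 h against untreated 66 h (−0.003 under DESeq2), Dnmt1 in untreated 78 h against untreated 66 h (−0.0025 under no filter), Dnmt1 in RA 78 h against day 2 (0.046 under library totals), Tet3 in the RA effect at 78 h minus 18 h (−0.035 under library totals).

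When single libraries were left out, the count of members called ran from 0 to 6 for RA 18 h against RA 8 h, from 0 to 6 for RA 30 h against RA 18 h, from 0 to 4 for RA 42 h against RA 30 h, from 0 to 1 for RA 66 h against RA 54 h, from 1 to 7 for RA 8 h against day 2, from 6 to 8 for RA against untreated at 18 h, from 2 to 6 for RA against untreated at 30 h, from 4 to 6 for RA against untreated at 42 h, from 4 to 6 for RA against untreated at 54 h, from 4 to 7 for RA against untreated at 66 h, from 3 to 7 for RA against untreated at 78 h, from 0 to 5 for RA against untreated at 8 h, from 2 to 5 for the RA effect at 42 h minus 18 h, from 4 to 5 for the RA effect at 78 h minus 18 h, from 2 to 4 for untreated 18 h against untreated 8 h, from 1 to 5 for untreated 30 h against untreated 18 h, from 4 to 5 for untreated 42 h against untreated 30 h, from 0 to 1 for untreated 54 h against untreated 42 h, from 0 to 3 for untreated 66 h against untreated 54 h, from 2 to 4 for untreated 8 h against day 2. It stayed at its value for RA 54 h against RA 42 h (0), RA 78 h against RA 66 h (0), RA 78 h against day 2 (7), untreated 78 h against day 2 (8), untreated 78 h against untreated 66 h (0).

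Of 1296 log2 fold changes with a library left out, 51 turned direction, in 32 member differences. Dnmt1 ran from −0.074 to 0.098 for RA against untreated at 8 h, from −0.13 to 0.0087 for untreated 42 h against untreated 30 h, from −0.12 to 0.049 for untreated 54 h against untreated 42 h, from −0.054 to 0.065 for untreated 78 h against untreated 66 h, from −0.075 to 0.061 for RA 30 h against RA 18 h, from −0.013 to 0.046 for RA 66 h against RA 54 h, from −0.022 to 0.083 for RA 78 h against RA 66 h. Tet3 ran from −0.17 to 0.45 for RA against untreated at 8 h, from −0.036 to 0.068 for untreated 18 h against untreated 8 h, from −0.20 to 0.41 for RA 18 h against RA 8 h, from −0.028 to 0.21 for the RA effect at 78 h minus 18 h. Dnmt3l ran from −1.13 to 0.81 for RA against untreated at 30 h, from −0.32 to 0.014 for RA against untreated at 54 h, from −0.0037 to 1.94 for RA 42 h against RA 30 h, from −0.26 to 0.085 for RA 78 h against RA 66 h. Tet2 ran from −0.17 to 0.086 for RA against untreated at 54 h, from −0.034 to 0.15 for untreated 8 h against day 2, from −0.11 to 0.16 for untreated 54 h against untreated 42 h, from −0.30 to 0.0042 for untreated 66 h against untreated 54 h, from −0.0021 to 0.34 for RA 78 h against RA 66 h. Tet1 ran from −0.18 to 0.13 for untreated 8 h against day 2, from −0.19 to 0.14 for untreated 54 h against untreated 42 h, from −0.053 to 0.36 for untreated 78 h against untreated 66 h, from −0.37 to 0.036 for RA 54 h against RA 42 h, from −0.14 to 0.34 for RA 66 h against RA 54 h. Dnmt3b ran from −0.019 to 0.049 for untreated 18 h against untreated 8 h. Uhrf1 ran from −0.014 to 0.13 for untreated 42 h against untreated 30 h, from −0.077 to 0.08 for untreated 54 h against untreated 42 h, from −0.076 to 0.025 for untreated 78 h against untreated 66 h, from −0.037 to 0.11 for RA 54 h against RA 42 h, from −0.033 to 0.064 for RA 66 h against RA 54 h. Dnmt3a ran from −0.29 to 0.0017 for RA 8 h against day 2.

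Scaling by library totals shifted the all-gene median by up to 0.16 (log2), at RA 78 h against day 2, so differences of that size depend on the scaling. The lowest count of a member in a library was 578, and 3 libraries per condition set the precision. Counting error is not small beside every spread. The SD was 1.12 CPM on a mean of 655 CPM for Uhrf1 at day 2. For Tet3 in untreated organoids at 18 h it was 1.37 CPM on 62.5 CPM. With 3 libraries an SD can come out small by chance. Intervals and SEs cover the libraries at hand, isoforms are not separated, and reads of Dnmt3l and of Aire, which overlap on opposite strands, cannot be told apart if the counting ignored strand.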

Other observations

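Around the condition means, the log2 levels of some members deviated together from library to library. Over the 45 libraries the deviations of Tet1 and Tet2 had a Pearson r of 0.877, those of Dnmt1 and Uhrf1 0.802 and those of Dnmt3b and Dnmt3l 0.765, while those of Uhrf1 and Tet1 had −0.700. These values describe deviations that share libraries and carry no test.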
